A study of Mus musculus with 4 samples.

Results

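Runx3, a transcription factor of the RUNX family, was mapped on the chromatin of splenic CD8 T cells of adult wild type mice, and its peaks were read here at the genes of the enzymes that build glycans. The genes were the protein-coding RefSeq genes whose symbols begin with St3gal, St6gal, St6galnac, St8sia, B4galt, B3gnt, B3galt, Galnt, Gcnt, Mgat or Fut followed by a number, leaving out 1 gene. This gave 80 genes in 11 families, of 21887 protein-coding genes on chromosomes 1 to 19, X and Y. The ChIP library came from 50000000 frozen cells pooled from 5 mice, sonicated and precipitated with a rabbit antiserum to Runx3. The CUT&RUN library, in which the same antiserum directs a nuclease that releases the DNA beside the bound protein, came from 150000 fresh cells of 1 mouse. A whole cell extract was the control behind the ChIP peaks, and a CUT&RUN control with normal rabbit serum was not analysed here; the strain and exact age are not given in the sources used here. Every group had 1 library, so no difference between the assays has a replicate check and no test was made.

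Glycosyltransferases sit mainly in the Golgi, where each adds a particular sugar to a growing chain on a protein or lipid. Galnt enzymes begin O-linked chains, Gcnt enzymes branch them, many Mgat enzymes branch N-linked chains, and B4galt, B3gnt and B3galt enzymes lengthen both. Sialyltransferases add sialic acid, and Fut enzymes add fucose, many at the ends of chains and Fut8 at the core. In T cells these sugars are known to change with activation: they form ligands for selectins and galectins, which bear on traffic, survival and the clustering of the T cell receptor.

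The ChIP list held 13166 peaks from 9532996 fragments left after duplicate removal, which took away 80.3% of the fragments, and the CUT&RUN list held 15891 peaks from 14068364 fragments, with 21.4% removed. The lists were called at q of 0.05 and 1e-05. A peak's pileup is the number of fragments over its summit, and its rank is its place in its own list by q. Peaks tied in q were ordered by pileup and then by their number in the list, so ranks of tied peaks are partly arbitrary. ChIP peaks with a pileup of 11 and the same q stood at 51.0% of the list at Mgat4a and at 59.4% at Galnt2. Heights were compared within a list only. Intervals of pileups are exact 95% Poisson intervals and those of shares are exact Clopper-Pearson intervals. Both cover counting error only. Pileups count fragments after duplicate removal, and any PCR copies that this removal missed would not be independent molecules. Of the T cell genes Cd3d, Cd3e, Cd3g, Cd8a and Cd8b1, all 5 had overlapping peaks of both lists within 10 kb. Such peaks lay at 31.5% of all protein-coding genes. Cd3d and Cd3g shared their best pair, with pileups of 88 in ChIP and 131 in CUT&RUN, so these 2 genes do not count independently. Of the B cell genes, Cd79a had peaks in both lists, and Ms4a1 and Cd79b had none. Binding is not expression, so these peaks do not check the cell type label.

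A gene counted as occupied if a summit fell inside it or no more than 10 kb from it. Of the 80 glycosyltransferase genes, 40 were occupied in ChIP (50.0%, 38.6 to 61.4), beside 40.2% of all protein-coding genes. In CUT&RUN, 45 were occupied (56.2%, 44.7 to 67.3), beside 45.1% of all protein-coding genes. Overlapping peaks of both lists lay at 32 genes (40.0%, 29.2 to 51.6), beside 31.5% of all. The intervals of all 3 shares hold the share of all genes. Another 4 genes had separate peaks in each list, 4 had a peak in ChIP alone and 9 in CUT&RUN alone, and 31 had none. Together 49 genes had a peak in either list (61.2%, beside 50.5% of all).

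Close to the gene ends the order turned round for the whole set, though not in the shortest tertile of gene span given below. A summit within 1 kb of either end was found at 15 genes in ChIP (18.8%, 10.9 to 29.0), beside 23.0% of all protein-coding genes. CUT&RUN had such a summit at 18 genes (22.5%, 13.9 to 33.2), beside 27.2% of all. Overlapping peaks of both lists lay there at 10 genes (12.5%, 6.16 to 21.8), beside 17.1% of all. These intervals also hold the shares of all genes.

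**Figure D1:**
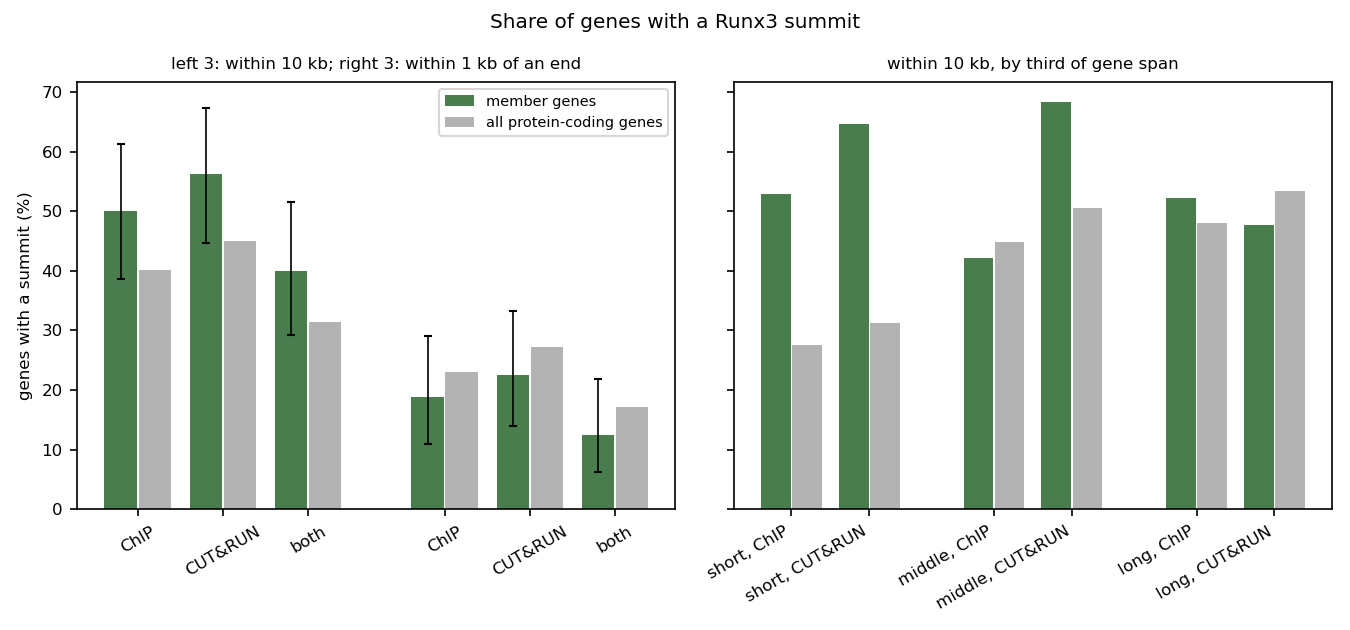
Share of genes (%) with a Runx3 summit, for the 80 glycosyltransferase genes (green, with 95% Clopper-Pearson intervals at left) and all protein-coding genes (grey). The left plot shows summits within 10 kb and within 1 kb of a gene end, and the right plot the 10 kb shares by tertile of gene span. Within 10 kb the green bars at left stand at 50.0%, 56.2% and 40.0%, above the grey ones, and within 1 kb of an end they stand at 18.8%, 22.5% and 12.5%, below them.

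The glycosyltransferase genes were long, with a median span of 42.7 kb against 17.2 kb over all protein-coding genes. All protein-coding genes were therefore cut into tertiles at spans of 8.74 and 31.2 kb. In the longest tertile, 23 of 44 glycosyltransferase genes were occupied in ChIP (52.3%, beside 48.1% of all genes there) and 21 in CUT&RUN (47.7%, beside 53.5%), and 18 in both (40.9%, beside 38.0%). In the middle tertile, 8 of 19 were occupied in ChIP (42.1%, beside 44.9%) and 13 in CUT&RUN (68.4%, beside 50.5%), and 7 in both (36.8%, beside 35.2%). In the shortest tertile, 9 of 17 were occupied in ChIP (52.9%, beside 27.6%) and 11 in CUT&RUN (64.7%, beside 31.3%), and 7 in both (41.2%, beside 21.4%).

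For 10 of the 49 genes occupied in either list (20.4%), every summit was nearer to another protein-coding gene, beside 19.5% of all occupied genes. In the shortest tertile this was so for 7 of 12 occupied genes (58.3%), beside 34.9% of the 2562 occupied genes there. The 10 genes were St3gal6 in the longest tertile, B4galt2 and Fut2 in the middle one, and 7 in the shortest. Those 7 were B4galt3, B3gnt8, B3gnt9, Galnt4, Gcnt7, Mgat2 and Fut1. With summits in the gene span alone, 2 of the 17 shortest genes were occupied in ChIP (11.8%, beside 9.66% of all genes there) and 1 in CUT&RUN (5.88%, beside 9.36%). With each summit given only to its nearest protein-coding gene, 31 of the 80 genes were occupied in ChIP (38.8%, beside 30.5% of all), 35 in CUT&RUN (43.8%, beside 34.8%) and 25 in both (31.2%, beside 22.6%).

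The 80 genes held 84 ChIP peaks and 100 CUT&RUN peaks within 10 kb. Of the ChIP peaks, 55 overlapped a CUT&RUN peak (65.5%, 54.3 to 75.5), beside 66.2% of the whole list. Of the CUT&RUN peaks, 58 overlapped a ChIP peak (58.0%, 47.7 to 67.8), beside 58.8% of the whole list. Their median pileup was 12 in ChIP and 24 in CUT&RUN, against medians of 12 and 25 over the whole lists. In ChIP 8 of the 84 stood in the top 10% of the list, and in CUT&RUN 9 of the 100. So in height and in agreement between assays these peaks were close to the lists they came from. The 58 overlapping pairs had a median distance between summits of 29 bp, with quartiles of 11 and 69 bp, against 39 bp over all 9358 pairs, with quartiles of 17 and 81 bp.

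**Figure D2:**
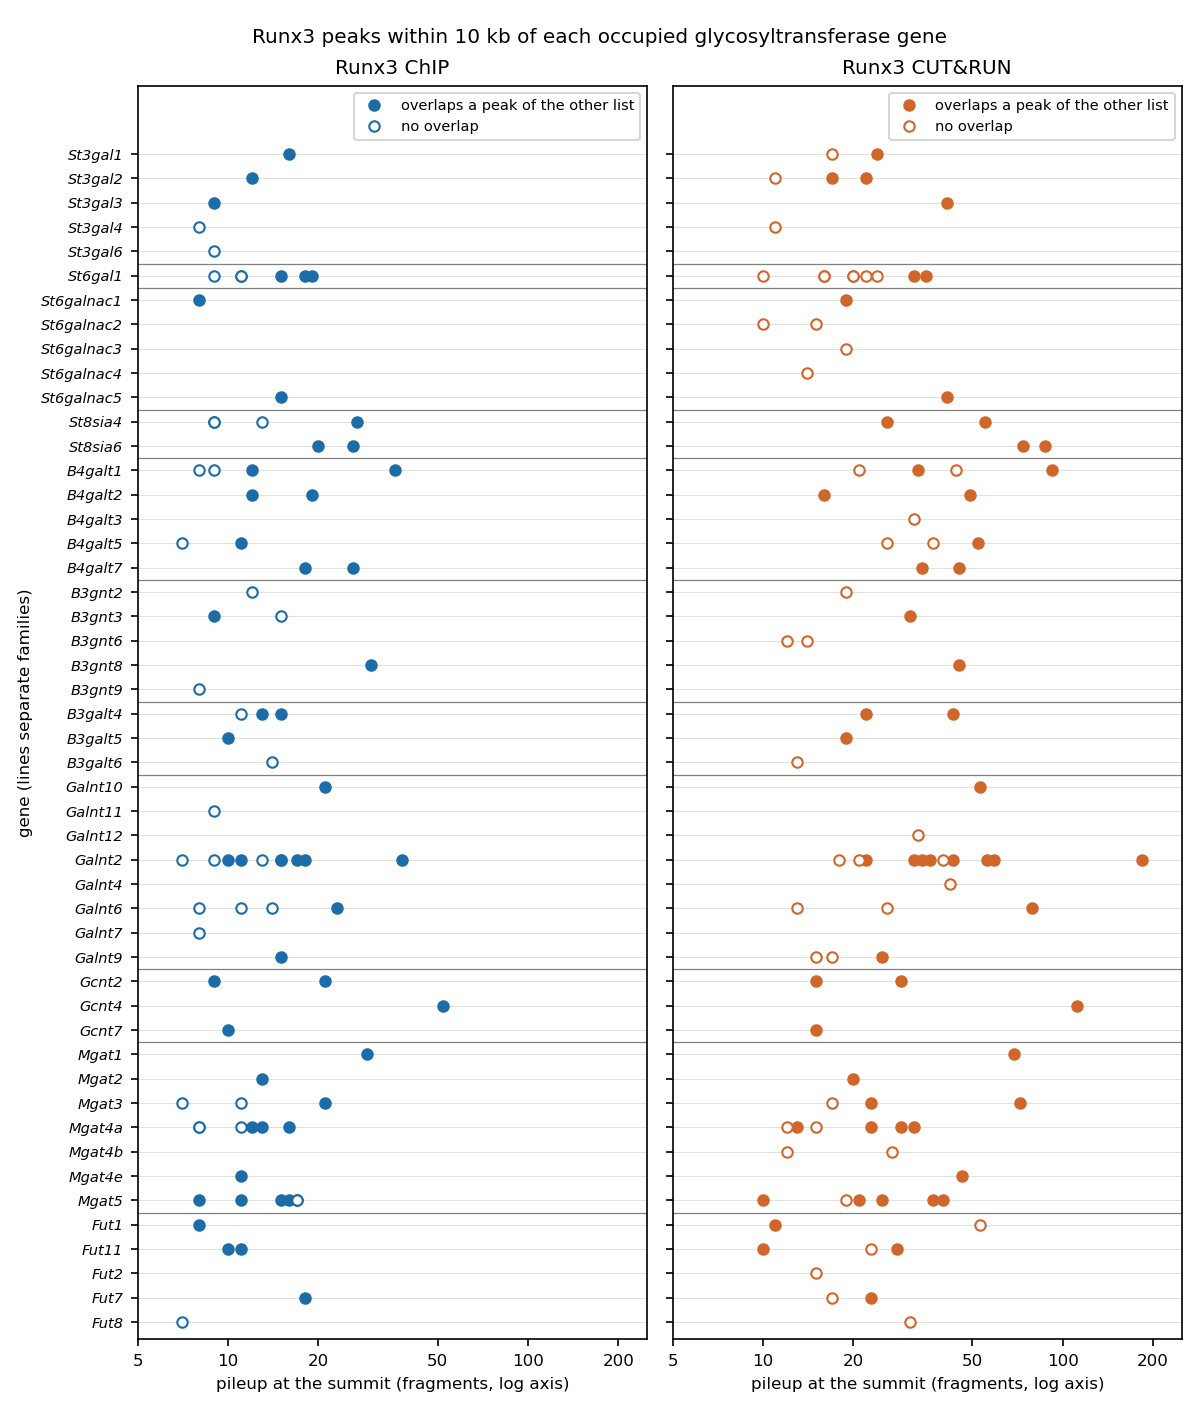
Pileup at the summit (fragments, log axis) of every Runx3 peak within 10 kb of the 49 occupied genes, with ChIP at left and CUT&RUN at right. Each point is 1 peak, filled where it overlaps a peak of the other list. Gcnt4 and Galnt2 hold the highest ChIP points, at 52 and 38, and the highest CUT&RUN points, at 112 and 184.

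The best ranked peak pair of all these genes lay at Gcnt4, which encodes an enzyme that branches O-linked chains. In ChIP 52 fragments (38.8 to 68.2) covered the summit, at chromosome 13, 96956640, and the peak was number 68 of 13166. In CUT&RUN 112 fragments (92.2 to 135) covered the summit at 96956646, 6 bp away, and the peak was number 230 of 15891. The pair lay 5.73 kb beyond the far end of the gene (96924344 to 96950914), away from its listed starts, and Gcnt4 was the nearest protein-coding gene. Each list had no other peak there.

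Gcnt2, the enzyme of I-type branches, held 2 pairs inside the gene, the better on chromosome 13 with 21 fragments (13.0 to 32.1) in ChIP at 40922702 and 29 (19.4 to 41.6) in CUT&RUN at 40922707. Gcnt7 had a weak pair 9.84 kb outside the gene that was nearer to Rtf2. Gcnt1, which makes the core 2 branches that carry selectin ligands on activated T cells, had no peak in either list, and nor had Gcnt3.

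Peaks gathered most at Galnt2, 1 of the enzymes that begin O-linked chains by adding N-acetylgalactosamine to serine or threonine. It held 10 ChIP and 11 CUT&RUN peaks (chromosome 8, 124231394 to 124345722), all inside the gene, and 7 of the ChIP peaks overlapped CUT&RUN peaks. At least as many ChIP peaks were found at 28 protein-coding genes (0.128% of all, and 0.384% of the longest tertile), and at least as many CUT&RUN peaks at 33 (0.151% and 0.452%). The strongest pair reached 38 (26.9 to 52.2) in ChIP at 124317963 and 184 (158 to 213) in CUT&RUN at 124318076, ranked 277 of 13166 and 107 of 15891. It lay about 27.8 kb from the end with the higher coordinate, and the table of promoters does not give the strand of Galnt2.

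The Galnt2 peaks formed groups. Around the strongest pair, 3 ChIP summits lay from 124317390 to 124319411 with pileups of 17, 38 and 18, and 4 CUT&RUN summits from 124317367 to 124319809 with pileups of 43, 184, 36 and 32. In a further group, 4 ChIP summits from 124274664 to 124276438 had pileups of 10, 15, 15 and 7, and 3 CUT&RUN summits from 124274629 to 124275998 had pileups of 56, 22 and 34. A single pair lay 11.0 kb inside the gene, with 11 fragments (5.49 to 19.7) in ChIP at 124242429 and 59 (44.9 to 76.1) in CUT&RUN at 124242434. This pair ranked far apart, in the top 59.4% of the ChIP list and the top 9.43% of the CUT&RUN list. The caller's local background in CUT&RUN was 6.70 to 6.98 fragments at the 4 summits of the strongest group and 2.1 at the single peak, so a pileup of 36 in that group stood for a fold of 5.49, and the pileup of 59 for a fold of 28.6. The remaining peaks, with ChIP pileups of 13 and 9 and CUT&RUN pileups of 18, 40 and 21, had no partner.

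**Figure D3:**
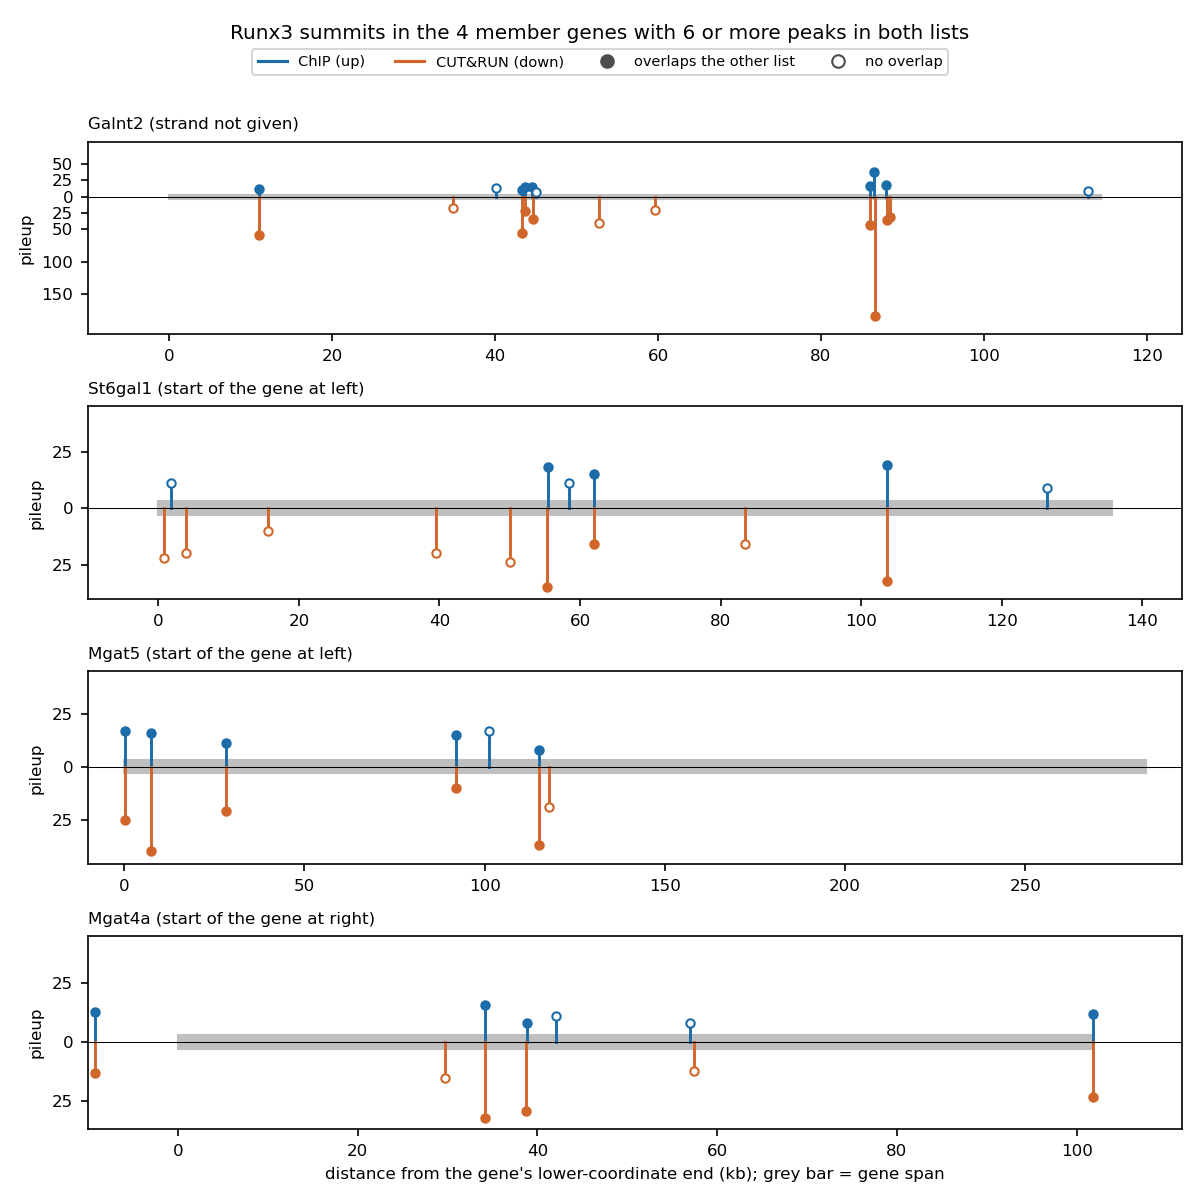
Runx3 summits along Galnt2, St6gal1, Mgat5 and Mgat4a, by distance (kb) from the gene's end with the lower coordinate, with ChIP pileup upwards and CUT&RUN pileup downwards. Filled points overlap a peak of the other list and the grey bar is the gene span. The highest CUT&RUN line stands in Galnt2, at 184, and in Mgat5 the summits lie in the part of the gene towards its start.

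Across the 17 Galnt genes, 6 were occupied in each list and 4 through overlapping peaks, beside 40.2% of all protein-coding genes in ChIP, 45.1% in CUT&RUN and 31.5% with overlap. All but Galnt4 and Galnt12 were in the longest tertile, where these shares of all genes were 48.1%, 53.5% and 38.0%. Galnt6 had a pair inside the gene that reached 23 (14.6 to 34.5) in ChIP at chromosome 15, 100706503 and 79 (62.5 to 98.5) in CUT&RUN at 100706474. Galnt10 had a pair 24.3 kb inside the gene with pileups of 21 (13.0 to 32.1) in ChIP and 53 (39.7 to 69.3) in CUT&RUN, the summits 16 bp apart. Galnt9 had a pair with pileups of 15 (8.40 to 24.7) in ChIP and 25 (16.2 to 36.9) in CUT&RUN. Galnt11 and Galnt7 had a peak in ChIP alone, and Galnt12 and Galnt4 in CUT&RUN alone. The other 9, Galnt1, Galnt3, Galnt5, Galnt13, Galnt14, Galnt15, Galnt16, Galnt17 and Galnt18, had none.

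Of the 11 Mgat genes, a family named for enzymes that build the branches of N-linked glycans, 6 had a peak in ChIP and 7 in CUT&RUN. Overlapping peaks lay at 6 of them. Beside these stand 40.2%, 45.1% and 31.5% of all protein-coding genes. Mgat1, whose enzyme opens the path to all hybrid and complex N-glycans, had 1 strong pair at its start. The ChIP peak reached 29 (19.4 to 41.6) at chromosome 11, 49244113, in the top 5.49% of the list, and the CUT&RUN peak reached 69 (53.7 to 87.3) at 49244148, in the top 12.5%. These lay 78 and 43 bp outside the gene.

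Mgat5, the enzyme of a further branch that galectins bind and that is known in mice to raise the threshold of T cell activation, held 6 peaks in each list, and 5 of them overlapped. At least as many peaks were found at 0.845% of all protein-coding genes in ChIP and 1.06% in CUT&RUN, and at 2.08% and 2.66% of the longest tertile. Over the gene and its 10 kb flanks this was 1.98 peaks per 100 kb in each list. The pair nearest the start had pileups of 17 (9.90 to 27.2) in ChIP at chromosome 1, 127205245 and 25 (16.2 to 36.9) in CUT&RUN at 127205274. The best ranked pair lay 7.59 kb inside the gene with pileups of 16 (9.15 to 26.0) in ChIP and 40 (28.6 to 54.5) in CUT&RUN. The heights ran in no common order: at 127297016 the ChIP pileup of 15 faced a CUT&RUN pileup of 10 (4.80 to 18.4), and at 127320135 a ChIP pileup of 8 (3.45 to 15.8) faced one of 37 (26.1 to 51.0). All Mgat5 summits lay within 118 kb of the start of a gene of 283 kb.

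Mgat4a, which adds another branch, also held 6 peaks in each list, 4 of them overlapping in each. Its best pair had pileups of 16 (9.15 to 26.0) in ChIP at chromosome 1, 37473506 and 32 (21.9 to 45.2) in CUT&RUN at 37473482, and a pair at its start had 12 (6.20 to 21.0) in ChIP and 23 (14.6 to 34.5) in CUT&RUN. Another of its pairs, outside the gene, was nearer to Coa5. Mgat3, which adds the bisecting sugar, had its best pair 18.8 kb inside the gene, with pileups of 21 (13.0 to 32.1) in ChIP and 72 (56.3 to 90.7) in CUT&RUN. Mgat4e had a pair with pileups of 11 (5.49 to 19.7) in ChIP and 46 (33.7 to 61.4) in CUT&RUN. Mgat2, the enzyme that acts after Mgat1, had a pair just outside its start with pileups of 13 (6.92 to 22.2) in ChIP and 20 (12.2 to 30.9) in CUT&RUN, nearer to its neighbour Rpl36al. Mgat4b had peaks in CUT&RUN alone, and Mgat4c, Mgat4d, Mgat4f and Mgat5b had none.

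Among the sialyltransferases, 19 genes in 4 families, 8 had overlapping peaks, 1 had separate peaks in each list, 1 had a peak in ChIP alone, 3 in CUT&RUN alone, and 6 had none. Overlapping peaks lay at 31.5% of all protein-coding genes. St6gal1, which makes the sialylated N-glycans that CD22 binds, held the most: 6 ChIP and 9 CUT&RUN peaks inside the gene (chromosome 16, 23224729 to 23360350), of which 3 of each overlapped. At least as many ChIP peaks were found at 0.845% of all protein-coding genes and 2.08% of the longest tertile, and at least as many CUT&RUN peaks at 0.274% and 0.822%. Its pairs had pileups of 18 (10.7 to 28.4), 15 (8.40 to 24.7) and 19 (11.4 to 29.7) in ChIP and of 35 (24.4 to 48.7), 16 (9.15 to 26.0) and 32 (21.9 to 45.2) in CUT&RUN. None of these peaks stood in the top 10% of its list. St6gal2, of the same family, had no peak.

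The St3gal genes, which place sialic acid on the ends of O-linked, N-linked or lipid chains, were occupied at 5 of 6 in ChIP and 4 of 6 in CUT&RUN, and 3 had overlapping peaks. Beside these stand 40.2%, 45.1% and 31.5% of all protein-coding genes. All St3gal genes were in the longest tertile, where the shares of all genes were 48.1%, 53.5% and 38.0%. St3gal1, whose enzyme caps core 1 O-glycans and is needed in mice for the survival of naive CD8 T cells, had 1 pair inside the gene, with pileups of 16 (9.15 to 26.0) in ChIP at chromosome 15, 67174723 and 24 (15.4 to 35.7) in CUT&RUN at 67174676. This pair lay 2.22 kb from the end with the higher coordinate. St3gal2 had a pair with pileups of 12 (6.20 to 21.0) in ChIP and 22 (13.8 to 33.3) in CUT&RUN. St3gal3 had a pair at its start with 9 (4.12 to 17.1) in ChIP and 41 (29.4 to 55.6) in CUT&RUN. St3gal4 and St3gal6, which contribute to selectin ligands, had no pair: St3gal4 had 8 fragments (3.45 to 15.8) in ChIP nearer to Dcps and 11 (5.49 to 19.7) in CUT&RUN 167 bp outside its start, and St3gal6 had 9 (4.12 to 17.1) in ChIP nearer to Dcbld2. St3gal5, which makes the ganglioside GM3, had none.

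The St8sia genes, which add sialic acid to sialic acid, were bound at 2 of 5 in each list, beside 40.2% of all genes in ChIP and 45.1% in CUT&RUN. All but St8sia3 were in the longest tertile, where these shares of all genes were 48.1% and 53.5%. St8sia6 held 2 pairs deep inside the gene, the better with pileups of 26 (17.0 to 38.1) in ChIP at chromosome 2, 13757650 and 74 (58.1 to 92.9) in CUT&RUN at 13757621. The other had pileups of 20 (12.2 to 30.9) in ChIP and 87 (69.7 to 107) in CUT&RUN. St8sia4, 1 of the enzymes that make polysialic acid, had a pair just outside its start with pileups of 27 (17.8 to 39.3) in ChIP at chromosome 1, 95667819 and 55 (41.4 to 71.6) in CUT&RUN at 95667756. A weaker pair, 12.0 kb inside the gene, had 9 in ChIP and 26 in CUT&RUN. St8sia2, which also makes polysialic acid, had no peak, nor had St8sia3 and St8sia5. Of the 6 St6galnac genes, which add sialic acid to O-glycans or gangliosides, 2 had a peak in ChIP and 5 in CUT&RUN, beside 40.2% and 45.1% of all genes. The St6galnac5 pair had pileups of 15 (8.40 to 24.7) in ChIP and 41 (29.4 to 55.6) in CUT&RUN with summits 367 bp apart, and St6galnac1 had a weak pair. St6galnac2, St6galnac3 and St6galnac4 had CUT&RUN peaks alone, and St6galnac6 had none.

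Of the 7 B4galt genes, 4 had a peak in ChIP and 5 in CUT&RUN, beside 40.2% and 45.1% of all genes, and 3 had overlapping peaks at a gene end, beside 17.1%. B4galt1, the main enzyme of N-acetyllactosamine, carried the third best pair of all the glycosyltransferase genes, almost on its start. The ChIP peak reached 36 (25.2 to 49.8) at chromosome 4, 40853965, as number 344 of its list, and the CUT&RUN peak reached 92 (74.2 to 113) at 40853972, as number 1033. A weaker pair and 4 unpaired peaks lay inside the gene. B4galt7, which adds the first galactose of the glycosaminoglycan linker, had a pair 943 bp inside its start with pileups of 26 (17.0 to 38.1) in ChIP and 34 (23.5 to 47.5) in CUT&RUN, the summits 1 bp apart. Its other pair, 6.76 kb outside the start with pileups of 18 in ChIP and 45 in CUT&RUN, was nearer to Tmed9. B4galt5, a lactosylceramide synthase, had a pair outside its start with pileups of 11 (5.49 to 19.7) in ChIP and 52 (38.8 to 68.2) in CUT&RUN. The 2 pairs at B4galt2 were nearer to Dph2 and Atp6v0b; the better had pileups of 19 (11.4 to 29.7) in ChIP and 49 (36.3 to 64.8) in CUT&RUN. B4galt3 had a CUT&RUN peak alone, nearer to Ppox, and B4galt4 and B4galt6 had none.

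In the B3gnt family, whose enzymes lengthen chains with N-acetylglucosamine, 4 of 8 genes were occupied in each list, beside 40.2% of all genes in ChIP and 45.1% in CUT&RUN. The best pair, with pileups of 30 (20.2 to 42.8) in ChIP and 45 (32.8 to 60.2) in CUT&RUN, counted for B3gnt8 but lay 8.13 kb outside it and was nearer to Dmac2. B3gnt2, the main enzyme of poly-N-acetyllactosamine, had 12 fragments (6.20 to 21.0) in ChIP and 19 (11.4 to 29.7) in CUT&RUN at different places, the CUT&RUN one 182 bp from its listed start. B3gnt3 had a pair inside the gene with pileups of 9 (4.12 to 17.1) in ChIP and 31 (21.1 to 44.0) in CUT&RUN. B3gnt9 had a ChIP peak alone and B3gnt6 CUT&RUN peaks alone, and B3gnt4, B3gnt5 and B3gnt7 had none. Of the 5 B3galt genes, 3 were occupied in each list, against the same background. The pairs at B3galt4, the GM1 ganglioside synthase, were nearer to Wdr46, with pileups of 15 (8.40 to 24.7) in ChIP and 43 (31.1 to 57.9) in CUT&RUN, and to Vps52. B3galt4 also had an unpaired ChIP peak with a pileup of 11 (5.49 to 19.7), 199 bp inside its start. B3galt5 had a pair inside the gene, B3galt6 had a separate peak in each list, and B3galt1 and B3galt2 had none.

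Of the 8 Fut genes, 4 had a peak in ChIP, 5 in CUT&RUN and 3 overlapping peaks, beside 40.2%, 45.1% and 31.5% of all genes. Fut7, which adds the last fucose of the selectin ligand sialyl Lewis x in leukocytes, had a pair 438 bp beyond its far end, with pileups of 18 (10.7 to 28.4) in ChIP at chromosome 2, 25426812 and 23 (14.6 to 34.5) in CUT&RUN at 25426807. Fut4, which acts beside Fut7, had no peak, nor had Fut9 and Fut10. Fut8, the enzyme of core fucose, had 7 fragments (2.81 to 14.4) in ChIP and 31 (21.1 to 44.0) in CUT&RUN far apart inside the gene. The pairs at Fut11 and Fut1 were nearer to other genes, as was the CUT&RUN peak of Fut2. Fut11 also had an unpaired CUT&RUN peak with a pileup of 23 (14.6 to 34.5), 270 bp inside its start. At Fut1 a CUT&RUN peak with no ChIP partner reached 53 (39.7 to 69.3), nearer to Izumo1.

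Where the strand was known, summits near a gene end lay nearly always at its start. This held for 16 of 17 ChIP summits (94.1%) and 16 of 17 CUT&RUN summits (94.1%) within 1 kb of an end, beside 92.7% and 92.8% over all protein-coding genes, and the exception in both lists was Fut7. Counting every listed start, internal ones included, 19 ChIP summits at 16 genes and 17 CUT&RUN summits at 17 genes lay within 1 kb of a start of the same gene. Among genes with a promoter window these were 27.1% of 59 in ChIP, beside 24.5% of 17492 protein-coding genes, and 28.8% in CUT&RUN, beside 28.8%. Overlapping peaks of both lists lay there at 10 genes (16.9%, beside 18.3%): B4galt1, Mgat1, Mgat2, Mgat4a, Mgat5, St3gal3, St8sia4, B4galt5, B4galt7 and B3galt5. The pairs lay outside the start of Mgat1 (78 bp for the ChIP summit, 43 bp for CUT&RUN), Mgat2 (175 and 83 bp), Mgat4a (49 and 60 bp), St3gal3 (152 and 161 bp), St8sia4 (102 and 39 bp) and B4galt5 (486 and 369 bp). They lay inside the gene at B4galt1 (19 and 12 bp), Mgat5 (0.326 and 0.355 kb) and B4galt7 (943 and 942 bp), all counted from the gene end. At B3galt5 it was an internal start, 216 bp downstream of the ChIP summit and 111 bp downstream of the CUT&RUN summit.

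**Figure D4:**
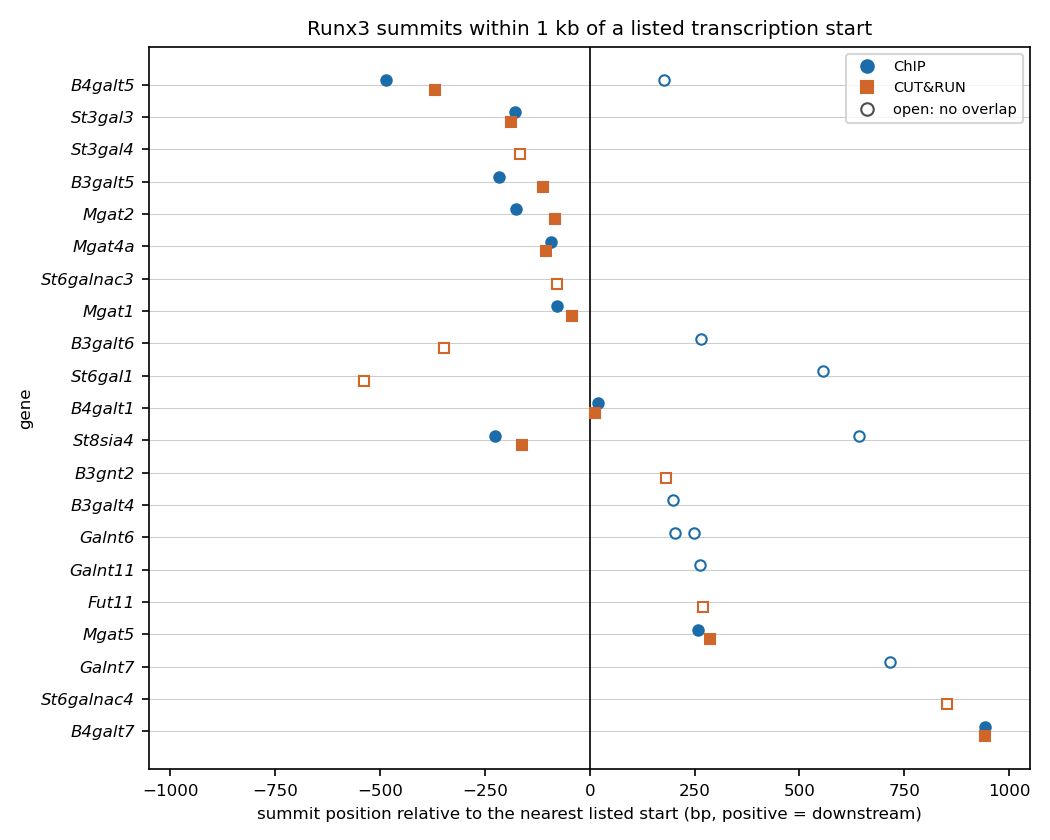
Position (bp, positive downstream) of each Runx3 summit within 1 kb of the nearest listed transcription start of the same gene, with ChIP as circles and CUT&RUN as squares, filled where the peak overlaps the other list. The B4galt1 summits lie 19 and 12 bp downstream of the start, and those of B4galt7 lie 943 and 942 bp downstream.

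RUNX proteins are known to bind the letters TGTGGT, and these were searched with their reverse complement ACCACA in the RefSeq promoter windows of GRCm38.p6, 250 bases before to 50 after each start. The table held 85 windows for 59 of the 80 genes. The 21 genes without a window were not searched. A match was found in 9 of the 85 windows (10.6%), beside 15.0% of the 21263 windows of all protein-coding genes. A summit of both lists lay in 7 of the 85 windows (8.24%), beside 9.93% of all windows, and 2 of those 7 held the motif (28.6%, beside 20.2% of the 2111 such windows of all genes). Those 2 were the windows of St8sia4 and B4galt1. Both also held the longer form TGTGGTT, which was in 7.34% of the 2111 windows. The other 7 windows with the motif, at B3galt5, B3gnt3, Fut7, Mgat1, Mgat4c, Mgat4d and St3gal6, held no summit. The 7 bound windows had a median GC content of 69.0%, against 63.3% in the 2111.

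The 250 bases before the start are printed for the bound windows with the motif, St8sia4 (chr1:95667595-95667844, minus strand) and B4galt1 (chr4:40853985-40854234, minus strand), and for 2 bound windows without it, Mgat1 (chr11:49243941-49244190, plus strand) and St3gal3 (chr4:118134947-118135196, minus strand). Each runs 5′ to 3′ in the direction of the gene, and capitals mark the motif.
St8sia4: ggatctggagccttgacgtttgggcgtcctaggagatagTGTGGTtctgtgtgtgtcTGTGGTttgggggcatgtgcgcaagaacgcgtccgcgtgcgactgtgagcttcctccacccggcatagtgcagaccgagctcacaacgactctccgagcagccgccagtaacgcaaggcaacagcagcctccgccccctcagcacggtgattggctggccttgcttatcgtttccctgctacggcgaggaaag
B4galt1: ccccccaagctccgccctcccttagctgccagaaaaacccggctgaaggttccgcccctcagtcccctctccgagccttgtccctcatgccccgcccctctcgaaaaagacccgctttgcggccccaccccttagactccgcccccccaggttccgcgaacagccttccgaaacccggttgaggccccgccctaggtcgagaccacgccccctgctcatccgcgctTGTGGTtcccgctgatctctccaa
Mgat1: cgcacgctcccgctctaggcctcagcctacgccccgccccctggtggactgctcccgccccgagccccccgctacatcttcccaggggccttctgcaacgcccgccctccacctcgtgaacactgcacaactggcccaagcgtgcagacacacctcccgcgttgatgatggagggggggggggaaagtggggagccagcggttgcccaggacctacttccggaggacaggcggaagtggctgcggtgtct
St3gal3: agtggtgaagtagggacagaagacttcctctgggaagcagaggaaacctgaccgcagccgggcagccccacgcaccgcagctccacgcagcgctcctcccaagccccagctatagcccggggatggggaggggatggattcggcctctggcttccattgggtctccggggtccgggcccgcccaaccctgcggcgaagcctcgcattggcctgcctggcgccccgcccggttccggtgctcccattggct

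In St8sia4 the motif stood at 211 and 193 bases upstream of the start, counted to its first letter, with the ChIP summit 225 bases and the CUT&RUN summit 162 bases upstream. In B4galt1 it stood 24 bases upstream, with the summits 19 and 12 bases downstream. The Mgat1 window was bound in both lists, with pileups of 29 in ChIP and 69 in CUT&RUN, and held none of the 6 letters in this order on either strand. The St3gal3 summits lay 178 bases upstream in ChIP and 187 in CUT&RUN, also in a window without the motif. A match is a description of the letters, and a window without one says nothing about how the protein was held there.

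Genes that supply or work beside these enzymes were also read. Of 14 genes for sugar donors and their transport, 11 had a peak in ChIP and 12 in CUT&RUN, and 8 had overlapping peaks. Slc35a1, which carries activated sialic acid into the Golgi, had a pair with pileups of 22 in ChIP and 41 in CUT&RUN, and Cmas, which activates sialic acid, one of 16 and 21. Of 13 genes for glycan trimming and related transfer, 8 and 11 were occupied and 7 through overlapping peaks. The highest was at B4galnt1, with pileups of 27 in ChIP and 131 in CUT&RUN. The core 1 enzyme gene C1galt1 had a pair with 16 in ChIP and 39 in CUT&RUN, and its chaperone gene C1galt1c1 had no peak. Of 4 sialidase genes, 2 had a peak in ChIP and 3 in CUT&RUN. Selplg, which encodes the selectin ligand PSGL-1, had 6 ChIP and 4 CUT&RUN peaks. Beside these counts stand 40.2% of all protein-coding genes in ChIP, 45.1% in CUT&RUN and 31.5% with overlapping peaks. For these related genes, unlike the glycosyltransferase genes, it is not given whether a pair lay nearer to another gene, or how long the genes were.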

How the data were processed

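The submitters' processing notes name Bowtie and the mm10 build. Per the file headers, MACS2 version 2.1.1.20160309 called the peaks of each library separately from paired-end fragments, keeping at most 1 fragment per position. ChIP used the whole cell extract as control and a q limit of 0.05, and CUT&RUN had no control, a limit of 1e-05 and an alignment named for nucleosome-free fragments, also per the file headers. The deposited lists give, per peak, a summit position, a pileup (a coverage signal in fragments), −log10 p and q values, and a fold enrichment (a ratio to local background). These are the authors' values, used to describe and rank peaks within a list.

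Summits were placed on the spans of 21887 protein-coding genes of a RefSeq table of GRCm38.p6 (mm10), which gives no strand; strand and starts came from RefSeq promoter windows, found for 59 of the 80 genes. Letters of opposite-strand windows that overlap were checked against each other and agreed in 732 of 732 cases. Peaks overlapped when they shared at least 1 bp (checked with bedtools 2.31.1). Placement and overlap steps were tested on simulated data. The named genes were the 20 with the smallest mean percent rank of their best overlapping pair, 10 chosen for known roles in T cells, and those with a pair at a gene end; the rest are named by occupancy, and other values were picked after they were seen. The members and lists were chosen with earlier results of these data known. With 1 library per assay, no test was made. Some genes of the marker and selectin lists, and the counts that rest on them, are not reported here.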

Additional observations from a re-analysis of the deposited data

How the results depend on the processing

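The intervals of the main shares hold the shares of all protein-coding genes. Over all spans, the glycosyltransferase shares were above those within 10 kb and below them at gene ends in every alternative run on those counts. The margin was small in some: at gene ends in ChIP, 12.5% beside 12.8% with the stronger 0.5 of each list. With the ChIP list cut at the CUT&RUN limit of q, the same shares were 15.0% beside 15.3%. In the main counts, the gene-end shares of the shortest tertile were not below those of all genes there. Counts kept within 1.5 times in 44 of 60 comparisons. With the stronger 0.5 of each list, occupied genes numbered 25 in ChIP and 19 in both lists, genes with a summit at an end 9 in CUT&RUN and 5 in both, distinct peaks 44 in ChIP and 45 in CUT&RUN, and overlapping peaks 24 in each. With gene spans alone, occupied genes numbered 26 in ChIP, 26 in CUT&RUN and 19 in both; in the shortest tertile 2 in ChIP and 1 in CUT&RUN, and in the middle tertile 4 and 7. With the longer motif TGTGGTT, 2 windows matched. The other alternatives, ChIP peaks at q of 1e-05 or less, stricter overlap, the nearest gene alone, every symbol with a listed beginning (83 genes), and distances of 50 kb, 500 bp and 2 kb, moved no count beyond 1.5 times. Leaving out ChIP peaks with a background over 10 times the list's median could not change these counts. The highest background of a ChIP peak at these genes was 2.12, which was also the median of the list. The comparisons of that run are among the 44. No paired analysis was possible because each assay had 1 library, and for the same reason no library could be left out. Low pileups limit the rest: 40 ChIP and 35 CUT&RUN zero counts among the 80 genes mean that no peak passed the caller, not that Runx3 was absent.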
